A study of Macaca mulatta with 19 samples.

Results

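FSHR and LHCGR encode the receptors for follicle-stimulating hormone (FSH) and luteinizing hormone (LH). Both were taken as the rows of these genes in a table of read counts for 32386 genes in 19 RNA-seq libraries of luteinized granulosa cells from rhesus macaques. FSHR (ENSMMUG00000017196) carried its symbol in the table. The LHCGR row (ENSMMUG00000010368) carried an identifier without a symbol and was matched through a table of identifiers and symbols. Both genes, 2 of 32386, passed the filter on low counts and were among the 15019 genes tested between treatments and the 14976 tested between oocyte classes.

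Females had been given an implant of cholesterol (C, the control) or testosterone (T, which raised testosterone 4 to 5 times above C) from about menarche, together with a standard diet (Chow) or a Western-style diet (WSD), with 10 animals enrolled per treatment. After about 3.5 years, controlled ovulation cycles were run, with 7 to 10 per treatment by the labels, and the follicle that had been selected naturally was aspirated around ovulation. Every group, Chow+C included, therefore carried an implant and went through a controlled ovulation. There were 4 Chow+C, 4 Chow+T, 5 WSD+C and 6 WSD+T libraries, described by the submitters as biological replicates. The oocyte from the same follicle was labelled MI in 8 libraries, MII in 4, degenerating in 6 and GV in 1, the usual abbreviations for the metaphase I, metaphase II and germinal vesicle stages of meiosis. These classes were spread unevenly: Chow+T had no MI library and WSD+C had no MII library.

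Both receptors belong to the glycoprotein hormone receptors, which couple through the G protein subunit GNAS to adenylyl cyclases, cyclic AMP and protein kinase A. In granulosa cells FSH acts through FSHR to support follicle growth and aromatase (CYP19A1) expression, and in the late follicle FSH also induces LHCGR. The LH surge then acts through LHCGR to start ovulation and luteinization, in which STAR, the protein that brings cholesterol to the first enzyme of steroid synthesis, is raised, and both receptor transcripts are known to decline after the surge. The samples here come from that periovulatory window.

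Gene counts per library ranged from 28832132 to 56385679. All 9 granulosa markers that could be matched were at 1 CPM (counts scaled to library size) or more in every library, while FOXL2 and INHBA of that list were not analysed here. Library WSD+C 4, with a degenerating oocyte, stood apart. Its mean log2 CPM was 9.81 over 7 erythroid markers (highest of the other 18 libraries, 3.63), 5.85 over 8 smooth muscle markers (2.54), 4.64 over 7 oocyte markers (1.14) and 3.82 over 5 cumulus markers (lowest of the others, 6.34). Its mean over the 9 granulosa markers, 7.54, lay within the range of the others, 7.44 to 8.57. Of these markers, however, 3 (CYP19A1, FST and INHA) lay below every other library and 1 (HSD17B1) above. Library WSD+T 6, also with a degenerating oocyte, had the highest mean over 13 macrophage markers, 7.05, and after WSD+C 4 (7.11) the highest over 10 leukocyte markers, 6.46. Values without WSD+C 4 are given beside many of the results. Values without WSD+T 6, alone or together with WSD+C 4, are given beside LHCGR levels, ratios and relations. Single LHCGR fold changes without WSD+T 6 alone are not given. In aspirated cells measured in bulk, fewer cells of a type and less RNA per cell cannot be told apart.

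FSHR was found in every library, at 2.02 to 8.38 CPM in 18 of them and at 81.0 CPM in WSD+C 4. The Chow+C libraries were at 3.01, 5.58, 7.80 and 6.35 CPM. The Chow+T libraries were at 2.02, 8.36, 7.38 and 8.38 CPM, so that 3 lay close together and 1 was well below them. The WSD+C libraries were at 6.74, 3.81, 4.61, 81.0 and 6.10 CPM. The 6 WSD+T libraries ranged from 2.06 to 6.14 CPM with a median of 4.21. Chow+C averaged 5.69 ± 2.00 CPM (SD, n = 4), Chow+T 6.53 ± 3.05 (n = 4) and WSD+T 4.18 ± 1.36 (n = 6), while WSD+C averaged 20.5 ± 33.9 (n = 5). Without WSD+C 4 the WSD+C mean was 5.32 ± 1.34 CPM (n = 4), and the order from the highest mean was Chow+T, Chow+C, WSD+C and WSD+T. No neighbours in that order differed by more than their SDs, and the ranges of all 6 pairs of groups overlapped, with or without WSD+C 4.

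LHCGR varied more widely over the libraries than FSHR did once WSD+C 4 was set aside, with an SD of 38.05% of the mean for FSHR (n = 18) and 57.9% for LHCGR. The Chow+C libraries were at 18.7, 11.2, 33.2 and 8.12 CPM. The Chow+T libraries were at 12.7, 11.6, 15.2 and 14.99 CPM, the narrowest range of the 4 groups. The WSD+C libraries were at 46.4, 33.01, 21.7, 0.425 and 13.6 CPM and held both the highest and the lowest library of the study. In WSD+T the range was 1.96 to 25.2 CPM with a median of 14.9, and the lowest value was that of WSD+T 6. The means were 17.8 ± 11.2 (SD, n = 4) in Chow+C, 13.6 ± 1.77 (n = 4) in Chow+T, 23.0 ± 17.7 (n = 5; 28.6 ± 14.3 without WSD+C 4) in WSD+C and 14.7 ± 7.80 CPM (n = 6; 17.2 ± 5.24 without WSD+T 6) in WSD+T. All 6 pairs of groups overlapped here too. CPM is not corrected for gene length, so the levels of the 2 receptors are not compared with each other.

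**Figure D1:**
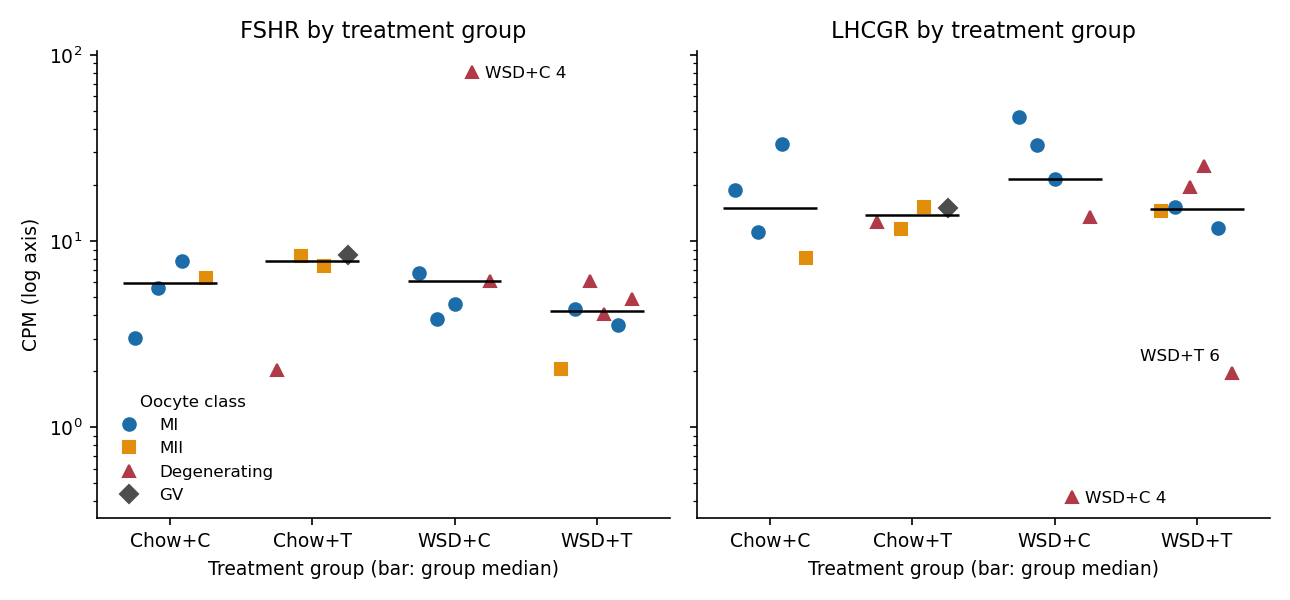
CPM of FSHR (left) and LHCGR (right) in each of the 19 libraries on a log axis, by treatment group, with the oocyte class as colour and shape and the group median as a bar. WSD+C 4 sits at 81.0 CPM for FSHR and 0.425 CPM for LHCGR, and WSD+T 6 at 1.96 CPM for LHCGR, while the other libraries of the groups overlap.

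The values at the ends of these ranges rest on enough reads to be told from counting error. In WSD+C 4 FSHR had 3435 reads, 15.5 times the median CPM of the other 18 libraries and 9.67 times the next highest. LHCGR had 18 reads there (exact Poisson 95% interval 10.7 to 28.5, which covers counting error only), 35.6 times below the median of the others. WSD+T 6 had 74 LHCGR reads (58.1 to 92.9), 4.15 times below the lowest of the remaining 17 libraries, while its FSHR, 4.89 CPM, was within the range of its group.

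The comparisons between treatments address what the androgen and the diet, alone and together, did to granulosa cells of the ovulating follicle. Neither receptor passed the adjusted threshold of 0.05 in edgeR's quasi-likelihood test in any of the 8 treatment comparisons. On the chow diet, testosterone gave log2 fold changes of 0.20 (SE 0.80) for FSHR and -0.39 (SE 0.81) for LHCGR against cholesterol, with adjusted p of 0.971 and 0.939. These estimates were small beside their errors for both genes, and the 95% interval for LHCGR, from 0.235-fold to 2.48-fold, does not exclude a change in either direction. The diet alone, WSD+C against Chow+C, gave 1.85 (SE 0.80) for FSHR (edgeR adjusted p = 0.830), which turned to -0.10 (SE 0.41) without WSD+C 4. For LHCGR the same comparison gave 0.37 (SE 0.77), and 0.68 (SE 0.55) without that library.

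Under both treatments together, WSD+T against Chow+C, FSHR was at -0.44 (SE 0.72) and LHCGR at -0.28 (SE 0.73) on the log2 scale. Testosterone within the Western-style diet, WSD+T against WSD+C, gave the lowest unadjusted p of either receptor, with a log2 fold change of -2.29 (SE 0.70) for FSHR (edgeR adjusted p = 0.999). Without WSD+C 4 it was -0.35 (SE 0.37). LHCGR was at -0.65 (SE 0.69) there and at -0.96 (SE 0.50) without WSD+C 4. The diet under testosterone, WSD+T against Chow+T, gave -0.64 (SE 0.72) for FSHR and 0.11 (SE 0.74) for LHCGR. These pairs share groups with the comparisons above, so the values are not independent of them.

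Averaged over both diets, testosterone was at -1.05 (SE 0.53) for FSHR (-0.07 without WSD+C 4). For LHCGR it was at -0.52 (SE 0.53), and at -0.68 (SE 0.37) without WSD+C 4. Averaged over both implants, the Western-style diet was at 0.60 (SE 0.53) for FSHR, which turned to -0.37 without WSD+C 4. For LHCGR the diet was at 0.24 (SE 0.53), and at 0.40 (SE 0.38) without that library. The interaction, the testosterone effect on the Western-style diet minus that on chow, was -2.49 (SE 1.06) for FSHR (edgeR adjusted p = 0.933) and -0.54 (SE 0.56) without WSD+C 4. The LHCGR interaction was -0.26 (SE 1.06), and -0.57 (SE 0.75) without WSD+C 4.

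No other gene passed in these edgeR fits either. edgeR called 0 of 15019 genes (0%) in each of the 8 treatment comparisons. At an unadjusted p under 0.05 it held 7.18% of all genes in Chow+T against Chow+C, 5.08% in WSD+C against Chow+C, 6.75% in WSD+T against Chow+C, 3.86% in WSD+T against WSD+C and 4.97% in WSD+T against Chow+T. The shares were 6.31% for the testosterone main effect, 6.87% for the diet main effect and 4.52% for the interaction. FSHR was at that level in 3 of them (WSD+C against Chow+C, WSD+T against WSD+C and the interaction), which stand beside these shares, and none of the 3 held without WSD+C 4. DESeq2 called at most 5 genes in a treatment comparison, neither receptor among them, and limma voom called 0.

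**Figure D2:**
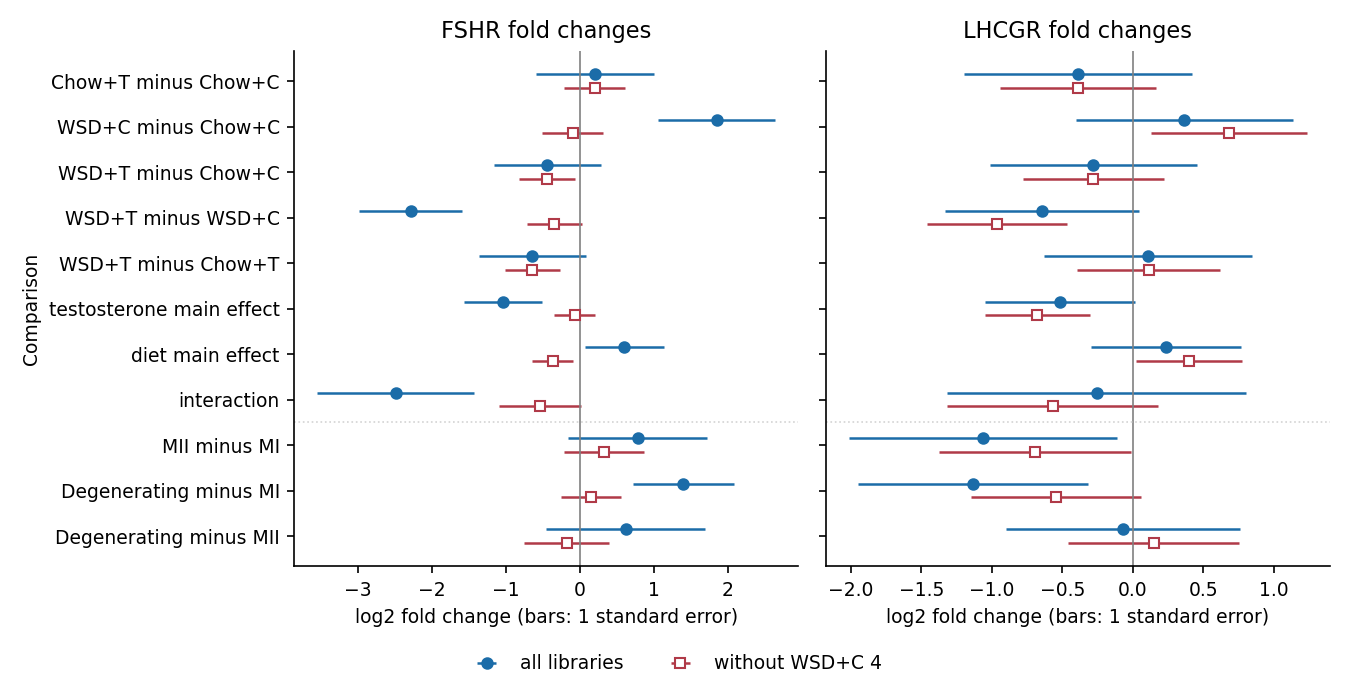
Fitted log2 fold changes of FSHR (left) and LHCGR (right) in the 8 treatment and 3 oocyte comparisons, with 1 standard error, from all libraries (filled circles) and without WSD+C 4 (open squares). The FSHR values of WSD+C minus Chow+C (1.85), WSD+T minus WSD+C (-2.29) and the interaction (-2.49) move to -0.10, -0.35 and -0.54 without that library.

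By oocyte class, LHCGR was higher on average beside MI oocytes. Without WSD+C 4, mean FSHR was 4.93 CPM in MI, 6.03 in MII and 4.65 in degenerating libraries. Neither receptor passed the test between classes. LHCGR ranged from 11.2 to 46.4 CPM in the 8 MI libraries with a mean of 23.9 ± 12.5 (SD). In the 4 MII libraries it was at 8.12, 11.6, 15.2 and 14.6 CPM (mean 12.4 ± 3.25). In the 6 degenerating libraries it ranged from 0.425 to 25.2 CPM (12.2 ± 9.67), and from 1.96 without WSD+C 4 (14.6 ± 8.67, n = 5). Without WSD+T 6 as well it was 17.7 ± 5.84 CPM (n = 4). The 1 GV library was at 14.99 CPM. Of the 5 libraries with the highest LHCGR, 4 were MI, and 6 of the 8 MI libraries lay above every MII library, though the classes overlapped.

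FSHR ranged from 3.01 to 7.80 CPM in MI libraries (4.93 ± 1.66) and stood at 6.35, 8.36, 7.38 and 2.06 CPM in MII libraries (6.03 ± 2.78). In the degenerating class it ranged from 2.02 to 81.0 CPM (17.4 ± 31.2, or 4.65 ± 1.71 without WSD+C 4), and the GV library was at 8.38 CPM. With treatment group as a term and the GV library left out, edgeR gave LHCGR log2 fold changes of -1.06 (SE 0.95) for MII against MI, -1.13 (SE 0.82) for degenerating against MI and -0.07 (SE 0.83) for degenerating against MII. Without WSD+C 4 the first was -0.70 (SE 0.68), the second -0.55 (SE 0.60) and the third 0.15 (SE 0.61). For FSHR the values were 0.78 (SE 0.94), 1.39 (SE 0.68) and 0.62 (SE 1.07), and without WSD+C 4 they were 0.33, 0.15 and -0.18. The smallest adjusted p among these 6 values was 0.370, for FSHR in degenerating against MI.

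Across all 14976 genes of the oocyte fit, edgeR called 0% in each of the 3 class comparisons, and an unadjusted p under 0.05 was held by 3.91% in MII against MI, 14.3% in degenerating against MI and 3.38% in degenerating against MII. DESeq2 called 6, 801 and 8 genes in these comparisons, and neither receptor was called. The leukocyte marker mean moved with class: it ran from -2.09 to 1.97 in MI libraries and from -1.13 to 7.11 in degenerating ones. Its part in the receptor values was not tested, but with that mean as a covariate the LHCGR difference for degenerating against MI was 0.27, of the opposite sign.

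The ratio of LHCGR to FSHR counts in the same library needs no scaling between libraries, and because neither count is divided by length only its differences between libraries can be read. LHCGR had more reads than FSHR in 17 of 19 libraries, the exceptions being WSD+C 4 and WSD+T 6. The log2 ratio was 2.17 ± 0.67 (SD, n = 8) in MI libraries, from 1.01 to 3.11. In MII libraries it was 0.35, 0.47, 1.04 and 2.82 (1.17 ± 1.14). In degenerating libraries it ranged from -7.54 to 2.64 with a median of 1.40, and the GV library was at 0.84. MII minus MI was -1.0 on average (exact permutation test, two-sided, p = 0.0869, adjusted p = 0.348 over 8 comparisons). Degenerating minus MI was -2.30 (exact permutation p = 0.0646, adjusted p = 0.348), and -0.82 without WSD+C 4. Without both outlying libraries the degenerating mean was 2.02 ± 0.74 (n = 4). No difference between classes passed.

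**Figure D3:**
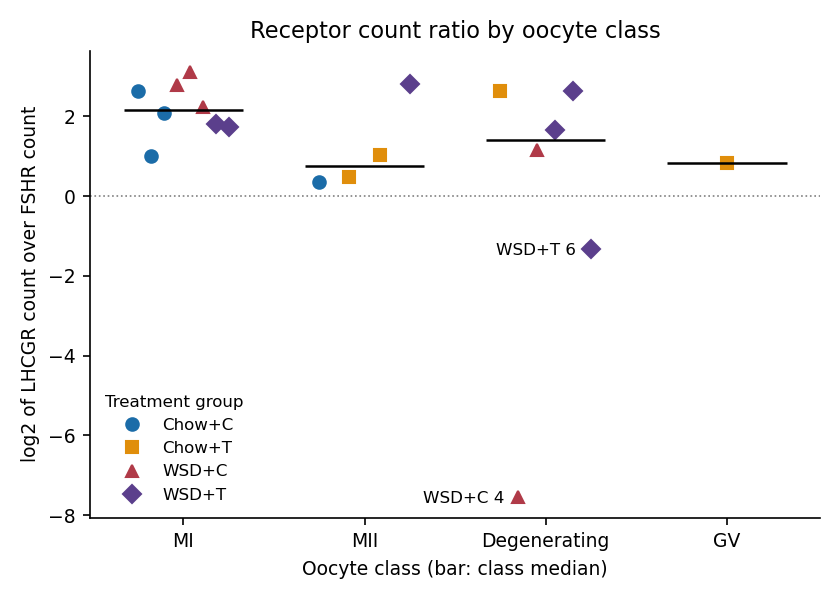
Log2 of the LHCGR count over the FSHR count in each library by oocyte class, with the treatment group as colour and shape and the class median as a bar. MI libraries lie between 1.01 and 3.11, and WSD+C 4 (-7.54) and WSD+T 6 (-1.32) are the 2 libraries below 0.

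Between treatments the mean log2 ratio was 1.52 ± 1.03 in Chow+C (n = 4), 1.25 ± 0.96 in Chow+T (n = 4), 0.35 ± 4.47 in WSD+C (n = 5; 2.32 ± 0.86 without WSD+C 4) and 1.55 ± 1.49 in WSD+T (n = 6; 2.13 ± 0.55 without WSD+T 6). The 5 differences between treatments had exact permutation p of 0.6905 to 0.986 before adjustment. WSD+C minus Chow+C turned from -1.17 to 0.80 without WSD+C 4 (exact permutation p = 0.229, adjusted p = 0.609). Without WSD+T 6, WSD+T minus Chow+T was 0.88 in place of 0.30 (exact permutation p = 0.151, adjusted p = 0.402).

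LHCGR was higher in libraries with more CYP19A1 and more STAR. The relations were not tested against each other. CYP19A1, the aromatase that makes oestrogens from androgens, ranged from 64.0 CPM in WSD+C 4 to 1266 CPM, and STAR from 225 CPM in WSD+C 4 to 5809 CPM. Over 19 libraries, LHCGR and CYP19A1 (log2 CPM) had Pearson's r of 0.740 (permutation p = 9e-05, adjusted p = 0.00045 over 5 relations) and Spearman's rho of 0.742 (permutation p = 0.00046, adjusted p = 0.0023). The highest LHCGR library, WSD+C 1 at 46.4 CPM, had 1193 CPM of CYP19A1, and the next, Chow+C 3, had the highest CYP19A1, 1266 CPM. WSD+C 4 and WSD+T 6, lowest for LHCGR, had 64.0 and 108 CPM of CYP19A1, and Chow+C 2, with 11.2 CPM of LHCGR, had 91.8. Without WSD+C 4 and WSD+T 6, the extreme libraries for LHCGR, r was 0.589 and rho 0.645, with adjusted permutation p of 0.0647 and 0.0302. By rho the relation held at the 0.05 threshold without those libraries, and by r it did not. With Chow+C 3 and WSD+C 1, then the extreme libraries for LHCGR, left out as well, r was 0.342 and rho 0.486.

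For LHCGR and STAR, r was 0.679 (permutation p = 0.00663, adjusted p = 0.0166) and rho 0.656 (p = 0.0026, adjusted p = 0.0065). The Pearson value leaned on WSD+C 4: without that library r was 0.349 and rho 0.596, and without both it and WSD+T 6 r was 0.486 and rho 0.603 (adjusted permutation p = 0.118 and 0.0302). WSD+T 6 had STAR at 2381 CPM, close to the median of the 19 libraries, 2496 CPM, although its LHCGR was 1.96 CPM. With treatment group means subtracted, LHCGR gave r of 0.744 with CYP19A1 and 0.712 with STAR. Leaving WSD+C 4 and WSD+T 6 out after that subtraction gave r of 0.574 and 0.525, and rho of 0.571 and 0.451. With oocyte class means subtracted in 18 libraries, r was 0.652 for both, and rho was 0.651 with CYP19A1 and 0.379 with STAR (adjusted permutation p = 0.0225 and 0.202). Leaving the same libraries out there gave r of 0.567 and 0.428, and rho of 0.529 and 0.353. Leukocyte markers also varied with LHCGR (median rho -0.49 over 10 markers), and their part was not tested. Residuals from the leukocyte marker mean gave r of 0.376 for CYP19A1 and 0.547 for STAR (adjusted permutation p = 0.143 and 0.0661) and rho of 0.340 and 0.372, so neither relation passed at that setting. Without WSD+C 4 and WSD+T 3, the extreme libraries for these LHCGR residuals, r was 0.581 for CYP19A1 and 0.243 for STAR, and rho 0.444 and 0.159.

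FSHR had a Pearson relation with STAR and none that passed with CYP19A1. With STAR, r was -0.64 (permutation p = 0.0118, adjusted p = 0.0196) and rho -0.26 (adjusted p = 0.479), and r was -0.31 without Chow+T 1 and WSD+C 4, the extreme libraries for FSHR. With oocyte class means subtracted (18 libraries), FSHR with STAR gave r of -0.715 and rho of -0.51 (adjusted permutation p = 0.0105 and 0.0829), and r of -0.483 and rho of -0.521 without Chow+T 1 and WSD+C 4. With CYP19A1, r was -0.36 and rho 0.014 (adjusted permutation p = 0.134 and 0.957). Between the 2 receptors r was -0.63 (adjusted permutation p = 0.041) and rho -0.12, and r was 0.021 without Chow+T 1 and WSD+C 4. Without Chow+T 1 alone, r was -0.694 for FSHR with STAR and -0.667 with LHCGR, and without WSD+C 4 alone it was -0.203 and 0.0538, so both Pearson values over all libraries rested on WSD+C 4.

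**Figure D4:**
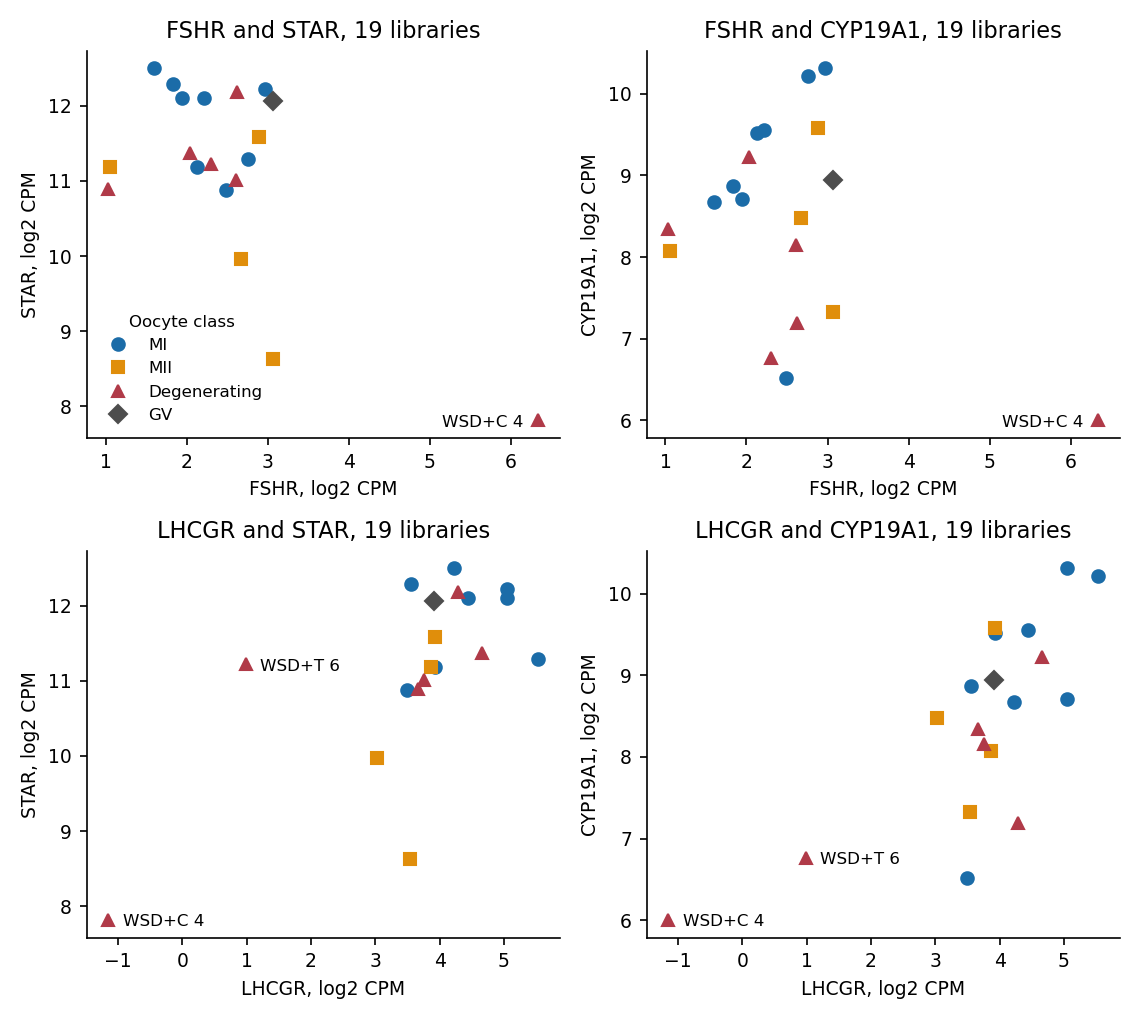
Log2 CPM of STAR (left) and CYP19A1 (right), on the y axes, against that of FSHR (top) and LHCGR (bottom), on the x axes, in 19 libraries, with the oocyte class as colour and shape. CYP19A1 is higher where LHCGR is higher (r = 0.740), while the FSHR panels show WSD+C 4 far from a cloud with no clear slope.

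Among 11115 named genes with a mean log2 CPM of at least 0, only 29, or 0.261%, had a higher rho with LHCGR than CYP19A1 did, and 156 (1.40%) had a higher one than STAR. These and the following likeness values are descriptions over the same 19 libraries, which share depth and cell content. The genes most like LHCGR were C5orf24 (rho 0.851), PGM1 (0.842), a phosphoglucomutase, IDI1 (0.833), an isomerase of the mevalonate pathway, ALG9 (0.828), a mannosyltransferase of N-glycan assembly, and FLYWCH2 (0.819). Each of these 5 kept a rho of at least 0.794 without WSD+C 4, but with the leukocyte mean removed they ranged from 0.311 (C5orf24) to 0.70 (PGM1). At the other end were PPM1M (-0.85), a protein phosphatase, PLXNA2 (-0.84), a semaphorin receptor, and PDCD7 (-0.82), a component of the minor spliceosome.

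The genes most like FSHR were different ones. TRIM59 led with rho of 0.904, ahead of PHF6 (0.860), RBMS2 (0.839), EXT1 (0.819), a polymerase of heparan sulfate, and MNS1 (0.819). Without WSD+C 4 these 5 were at 0.787 to 0.887, and TRIM59 was at 0.897 with the leukocyte mean removed. The lowest were DDX31 (-0.86), an RNA helicase, MVP (-0.85), the major vault protein, and ID2 (-0.85), an inhibitor of helix-loop-helix factors. AMHR2, the receptor for anti-Müllerian hormone and a granulosa gene, had rho of 0.765 with FSHR (0.726 without WSD+C 4), which 18 named genes exceeded, and -0.07 with LHCGR. For comparison, the central 95% of all 15019 genes spanned rho of -0.59 to 0.582 with FSHR and -0.57 to 0.604 with LHCGR.

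FSHR and LHCGR lie next to each other on their chromosome, with 0 protein-coding genes between them in the gene order of the T2T-MMU8v2.0 assembly, which was used for names and order only. The likeness between these neighbours was slight (rho -0.12, and 0.030 without WSD+C 4). The further neighbours are the nearest genes that were tested, and untested genes may lie between them. STON1, the nearest tested gene on the LHCGR side, was above all others in WSD+C 4 (11.4 against at most 8.13 CPM) and had rho of 0.104 with LHCGR and 0.188 with FSHR. PPP1R21, beyond it, had rho of 0.432 with LHCGR and was within the range of the others in WSD+C 4. FOXN2, the next tested gene on that side, was at 26.1 CPM in WSD+C 4, above the rest (at most 23.0). CHAC2 and ASB3, on the FSHR side, had rho of 0.284 and 0.130 with FSHR and were not outside the range of the others there.

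Downstream of the receptors, none of the 25 tested genes of cyclic AMP signalling (the G protein subunits, adenylyl cyclases, protein kinase A subunits and their transcription factors) passed the adjusted threshold in any comparison. Between 0 and 2 of them had an unadjusted p under 0.05 in each comparison, and their median log2 fold change stayed between -0.06 and 0.08, beside -0.02 to 0.04 over all genes. GNAS averaged 692 ± 121 CPM (SD, n = 4) in Chow+C, the lowest group, 888 ± 90.4 (n = 4) in Chow+T, 864 ± 60.3 (n = 5) in WSD+C and 835 ± 76.9 (n = 6) in WSD+T. Against Chow+C its log2 fold changes were 0.36 (SE 0.18) in Chow+T, 0.32 (SE 0.17) in WSD+C and 0.27 (SE 0.16) in WSD+T, with edgeR adjusted p of 0.693, 0.830 and 0.7195. PRKAR2B, a regulatory subunit of protein kinase A that FSH is known to raise, had rho of 0.658 with LHCGR and 0.263 with FSHR. Its lowest library was WSD+T 6 (103 CPM), followed by WSD+C 4 (140 CPM), the same 2 libraries that were lowest for LHCGR.

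Genes that damp receptor signalling (receptor kinases, arrestins, regulators of G protein signalling and the phosphodiesterases that break down cyclic AMP) also held no adjusted call among 25 tested. In degenerating against MI, 9 of them had an unadjusted p under 0.05, 7 higher and 2 lower, beside 14.3% of all genes, and their median was 0.52 beside 0.02. ARRB2, an arrestin, was at 0.91 (SE 0.27, edgeR adjusted p = 0.169), GRK2, a receptor kinase, at 0.62 (SE 0.19, adjusted p = 0.170) and PDE3B, a phosphodiesterase, at 4.56 (SE 1.29, adjusted p = 0.164). PDE8A was at -1.21 (SE 0.45, edgeR adjusted p = 0.254). These values include WSD+C 4, which lay above every other library for ARRB2, GRK2 and PDE3B and below every other for PDE8A. Without WSD+C 4 the counts were 3 higher and 1 lower with a median of 0.30, where 951 of all 14743 genes tested had an unadjusted p under 0.05. Without WSD+T 6 as well they were 1 higher and 0 lower with a median of 0.24, beside 585 of 14623 genes. The leukocyte mean that differed between these classes is given above, and its part was not tested. In Chow+T against Chow+C, APPL1, an adaptor that binds FSHR, was at -2.01 (SE 0.57, edgeR adjusted p = 0.658), at levels of at most 1.56 CPM in every library. RGS2, which limits G protein signalling, had rho of 0.20 with LHCGR and 0.174 with FSHR, and PDE4D had 0.174 with LHCGR and -0.21 with FSHR.

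Genes known to respond to FSH (18 tested) and to LH (27 tested) were not called in any comparison either. INHA, the inhibin alpha subunit, had rho of 0.635 with LHCGR and 0.030 with FSHR, and ranged from 2734 to 7641 CPM apart from WSD+C 4 at 231 CPM. CCND2, a cyclin of granulosa growth, averaged 20.2 ± 4.97 CPM over Chow+C libraries (n = 4) and 34.1 ± 8.31 over WSD+C libraries (n = 5), with a log2 difference of 0.75 (SE 0.32, edgeR adjusted p = 0.830). Of the LH response, CYP11A1, the side-chain cleavage enzyme, had rho of 0.305 with LHCGR, SCARB1, the lipoprotein receptor, 0.368, HSD3B2, a progesterone-forming dehydrogenase, 0.093, PTGS2, a prostaglandin synthase, 0.119, and PGR, the progesterone receptor, 0.154. The EGF-like ligands AREG and EREG were at -0.23 and -0.16, and TNFAIP6, a matrix protein of the expanding cumulus, at -0.08. RUNX1, an ovulatory transcription factor, had rho of -0.60 with FSHR and 0.032 with LHCGR, while RUNX2 had 0.272 and -0.15. Over the 27 LH genes the median rho was 0.088 with LHCGR (-0.07 without WSD+C 4) and -0.26 with FSHR (-0.12 without it), and over the 18 FSH genes 0.142 and 0.222, beside 0.002 and 0 over all genes.

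Of the 4 other family members that passed the filter on low counts, TSHR, LGR5 and LGR6 were at most 1.86 CPM, and LGR4, an R-spondin receptor, averaged 893 ± 217 CPM (n = 4) under Chow+C and 876 ± 330 (n = 6) under WSD+T. In WSD+C 4, LGR4 lay below every other library. TSHR, the thyrotropin receptor, was at most 0.540 CPM. CGA, the alpha subunit shared by FSH, LH and thyrotropin, was counted at 0.849 CPM in WSD+C 4 and up to 74.8 CPM elsewhere, with rho of 0.100 with FSHR and 0.012 with LHCGR. Among 20 genes that bind or regulate the receptor genes or their transcripts, none passed. NR5A1 and NR5A2, nuclear receptors of steroidogenic cells, had rho of 0.172 and 0.147 with LHCGR, and GATA4 and GATA6, zinc finger factors of granulosa cells, 0.251 and -0.14. MVK, mevalonate kinase, which is also described as a protein that binds LHCGR transcripts, had rho of 0.451 with LHCGR (0.354 without WSD+C 4) and was at -1.28 (SE 0.45) in MII against MI (edgeR adjusted p = 0.9995).

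Library WSD+C 4, where FSHR was highest and LHCGR lowest, differed from the others across the transcriptome. It was above all other 18 libraries for 18.9% of the 15019 genes and below all for 21.8%. At least as far above the median of the others as FSHR were 789 genes, and at least as far below as LHCGR were 97 genes. Of the 27 LH response genes, 20 lay below every other library and 1, CD24, above, with a median offset of -3.08 on the log2 scale. They included STAR (225 CPM), CYP11A1 (50.9), SCARB1 (56.8), HSD3B2 (4.22), AREG (4.27), PTGS2 (35.8) and TNFAIP6 (0.944). Of the 18 FSH response genes, 6 lay below all others, among them CYP19A1 and INHA, and 1 above, HSD17B1, which makes oestradiol from oestrone (128 CPM), with a median offset of -0.36. Of the 20 receptor gene regulators, 5 lay below all others (NR5A1, GATA6, MVK, CTNNB1 and SP3) and 2 above (HDAC2 and TCF3). NR5A2, GATA4, GNAS, CCND2 and AMHR2 were within the range of the other libraries.

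**Figure D5:**
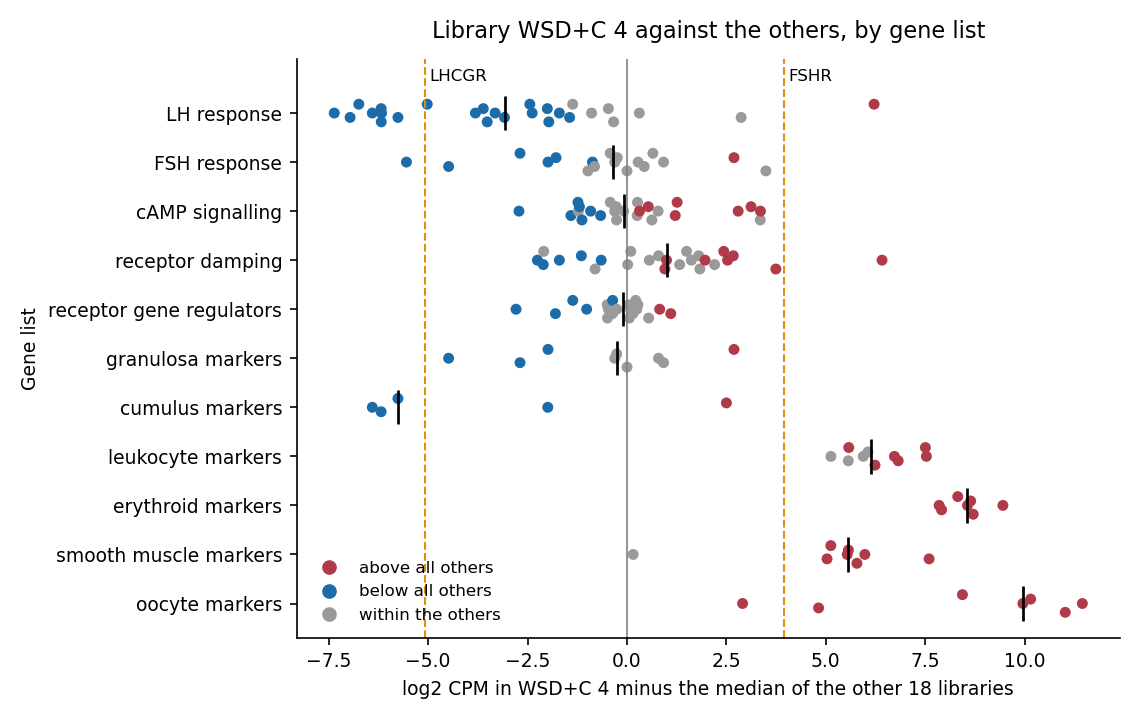
Log2 CPM in WSD+C 4 minus the median of the other 18 libraries for each tested gene, by gene list, coloured by whether WSD+C 4 lay above all, below all or within the others. Black bars are list medians (-3.08 for the LH response, -0.36 for the FSH response) and dashed lines mark FSHR and LHCGR.

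Markers of other cells were high in the same library. All 7 erythroid, all 7 oocyte and 7 of 8 smooth muscle markers were above every other library, as were 6 of 10 leukocyte markers and 0 of 13 macrophage markers. The summed CPM of the erythroid list ran from 12.4 to 128800 in WSD+C and from 19.04 to 3433 in Chow+C, and that of the leukocyte list from 5.79 to 2140 and from 9.11 to 58.6. Oocyte markers at 0 elsewhere included ZP2 and ZP4, each at 0 in 13 libraries. The part of these cells in the FSHR and LHCGR values of WSD+C 4 was not tested. Over all 19 libraries none of the 10 leukocyte, 13 macrophage, 7 erythroid, 8 smooth muscle or 7 oocyte markers had a positive rho with LHCGR, with list medians of -0.49, -0.49, -0.34, -0.41 and -0.31, beside 50.04% of all genes with a positive one. With FSHR, 9, 11, 7, 6 and 6 of these markers had a positive rho, with list medians between 0.093 and 0.195, beside 49.99% of all genes, and without WSD+C 4 the medians were 0.059, -0.05, 0.002, 0.007 and 0.053. Of the 9 granulosa markers, CYP19A1 among them, 7 had a positive rho with LHCGR (median 0.147, and 0.183 without WSD+C 4). With FSHR 7 of the 9 were positive as well (median 0.030, and 0.212 without WSD+C 4). The remaining marker lists were mixed with LHCGR: 3 of 5 endothelial (median 0.037), 4 of 8 theca and stroma (-0.04), 2 of 6 surface epithelium (-0.10) and 3 of 5 cumulus markers (0.337) had a positive rho.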

How the data were processed

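Poly(A)-selected, non-directional libraries (Illumina TruSeq) were made per the labels' protocols, so a gene and an overlapping antisense transcript cannot be told apart. The authors deposited raw read counts per gene. The submitters' processing notes name Trimmomatic and STAR, without a version, and neither build nor annotation is given in the sources used here.

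From these counts, edgeR 4.0.16 (R 4.3.3) filtered genes (filterByExpr, minimum count 10), scaled libraries by TMM and fitted robust quasi-likelihood models: 4 treatment groups over 19 libraries, or oocyte class plus treatment over 18. P-values were adjusted by Benjamini-Hochberg over all genes, with a threshold of 0.05. Levels are TMM-scaled CPM, and log2 CPM has a prior count of 1. Ratios used counts plus 0.5 with exact permutation tests over samples, and relations used 100000 permutations. Marker means average log2 CPM over a list. Replicate numbers follow accession order and pair nothing. DESeq2 1.42.0 and limma 3.58.1 were alternatives.

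The members and gene lists were chosen with earlier results of these data known. Named genes are the receptors, STAR, CYP19A1, the 5 most and 3 least like each receptor by rho, chromosomal neighbours and a fixed panel of pathway genes, of which 1 gene is not reported here. Genes such as GRK2, PDE3B, PDE8A, APPL1, TSHR, LGR4, CGA, CTNNB1, SP3, HDAC2, TCF3 and CD24 were named from the lists after their values were seen.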

Additional observations from a re-analysis of the deposited data

Results flagged for a closer look

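Among 35 groups of 4 to 8 libraries examined for FSHR, LHCGR, STAR, CYP19A1 and the receptor ratio, 10 held a library whose gap to the next was large for its group by Dixon's 95% criterion, which chance meets in about 1 of 20 groups. Most libraries entered both a treatment group and an oocyte class, and the ratio is made of both receptors. The 10 are therefore not independent, and that rate cannot be set against their number. Library WSD+C 4 accounted for 6 of the 10. Its FSHR, 6.34 log2 CPM, was far above the next in WSD+C (2.76) and in the degenerating class (2.62). Its LHCGR, -1.16 log2 CPM, was below the next in WSD+C (3.76), its STAR, 7.81 log2 CPM, below the next in WSD+C (11.0) and in the degenerating class (10.9), and its log2 LHCGR to FSHR ratio, -7.54, below the next in WSD+C (1.149). Library WSD+T 6 had LHCGR at 0.99 log2 CPM against 3.56 for the next WSD+T library, and a log2 ratio of -1.32 against 1.66. Chow+T 1 had FSHR at 1.03 log2 CPM, below the next Chow+T library (2.89). Chow+C 2 had CYP19A1 at 6.52 log2 CPM, below the next MI library (8.67). The causes were not tested.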

How the results depend on the processing

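Neither receptor passed the adjusted threshold between groups at any setting run, so the changes between groups are of sign or size, and a value that misses the threshold with 4 to 8 libraries a group does not show that groups are alike. Of the medians of the pathway lists under the alternatives, 1133 moved by less than a set spread and 7 by more. That spread is the SD of a list's mean log2 CPM over libraries within treatment groups. It ran from 0.139 for cyclic AMP signalling to 0.772 for the LH response, so a median could change sign below it. The LH median for degenerating against MI, for example, turned from -0.06 to 0.26 without WSD+C 4. With MI and MII libraries alone, FSHR was at -0.17 for WSD+C against Chow+C and -0.72 for diet, and the ratio at 1.19 for WSD+C against Chow+C and -0.59 for WSD+T against WSD+C. With WSD libraries alone, FSHR was at -0.29 for MII against MI. A granulosa covariate gave an LHCGR interaction of 0.66. A leukocyte covariate gave LHCGR -0.17 for WSD+C and 0.49 for WSD+T against Chow+C, 0.66 for WSD+T against WSD+C, 0.17 for testosterone, 0.98 for the interaction, 0.10 for MII against MI, 0.27 for degenerating against MI and 0.17 against MII. It gave FSHR -0.27 for diet, -0.47 for MII against MI, -0.52 for degenerating against MI and -0.0544 against MII. limma voom gave LHCGR -0.46 for WSD+C against Chow+C, 0.11 for WSD+T against WSD+C, -0.15 against Chow+T, -0.31 for diet and 0.31 for the interaction. An oocyte covariate gave FSHR -0.60 for Chow+T against Chow+C, and LHCGR 0.48 there, 0.41 for WSD+T against Chow+C, 0.0123 against WSD+C, -0.0714 against Chow+T and 0.25 for testosterone. Without both WSD+C 4 and WSD+T 6, FSHR was at -0.10 for WSD+C against Chow+C, -0.40 for diet and -0.22 for degenerating against MII, and LHCGR at 0.37 for the last. The causes were not tested.

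Without both libraries, r was -0.203 for FSHR with STAR, 0.101 with CYP19A1 and 0.0839 with LHCGR (rho 0.0417), and 0.486 and 0.589 for LHCGR with STAR and CYP19A1. Leukocyte residuals gave r of -0.507, 0.0267 and -0.407 for the FSHR relations, and r of 0.547 and 0.376 with rho of 0.372 and 0.340 for LHCGR with STAR and CYP19A1. Subtracting oocyte class means, chosen after seeing the data, gave rho of -0.0795 for FSHR with CYP19A1 and 0.379 for LHCGR with STAR, and subtracting treatment means gave rho of -0.20 for the first.

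Leaving out 1 library at a time, FSHR ran from -0.00576 to 0.51 for Chow+T against Chow+C, -0.10 to 2.13 for WSD+C against Chow+C, -0.37 to 0.74 for diet, -0.0103 to 1.73 for MII against MI and -0.35 to 1.80 for degenerating against MII. LHCGR ran from -0.63 to 0.10 for Chow+T, -0.0556 to 0.86 for WSD+C and -0.52 to 0.21 for WSD+T against Chow+C, -0.12 to 0.34 for WSD+T against Chow+T, -0.75 to 0.17 for the interaction and -0.38 to 0.15 for degenerating against MII. The ratio ran from -0.74 to 0.10, -1.86 to 0.80 and -0.36 to 0.61 for the same 3 against Chow+C, -0.76 to 1.90 for WSD+T against WSD+C and -1.86 to 0.18 for degenerating against MII. For FSHR, r ran from -0.694 to -0.203 with STAR, -0.430 to 0.0912 with CYP19A1 (rho -0.0815 to 0.193) and -0.723 to 0.0538 with LHCGR (rho -0.234 to 0.0299), and for LHCGR with STAR from 0.349 to 0.774. No paired analysis was possible because replicate numbers follow accession order and pair no libraries.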
